A study of Homo sapiens with 6 samples.

Results

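The genes examined were those of the follistatins, the activin subunits, BMP4 and the ID proteins, in a liver cancer cell line treated with fostamatinib. They were chosen by symbol, and the choice was made with the differences between fostamatinib and DMSO in these same samples already known. Of the 10 genes chosen, 9 had values among the 16305 genes measured, namely FST, FSTL3, INHBA, INHBB, INHBE, BMP4, ID1, ID2 and ID3. INHBC was not analysed here. RNA-seq was performed on Huh7-R cells (Huh7SR in the sample labels), a sorafenib-resistant pool derived from the human hepatocellular carcinoma cell line Huh7. All 6 samples carried this resistance, and per the study's methods sorafenib was withdrawn from the medium some days before each experiment. One group of 3 samples received fostamatinib, an inhibitor of spleen tyrosine kinase, at 2 µM for 24 h. The other 3 received DMSO, the solvent, for 24 h, and the labels write 2 µM for them as well. The study did not detect spleen tyrosine kinase protein in Huh7 cells. At a higher dose and a shorter time it reported that fostamatinib lowered phosphorylation of ERK, AKT, STAT3, EGFR and JNK. Whether the 3 samples per group came from separate cultures is not in the labels. Errors and p-values thus rest on the spread between samples, pooled in part across genes, and that spread may be technical.

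Activins are dimers of beta subunits encoded by the INHB genes. They belong to the TGF-beta family and signal through paired serine/threonine kinase receptors to SMAD2 and SMAD3. BMP4, a bone morphogenetic protein of the same family, signals to SMAD1, SMAD5 and SMAD9, and the ID genes are among the best known targets of that branch. Follistatin (FST) and follistatin-like 3 (FSTL3) are secreted proteins that bind activins and keep them from their receptors. In liver, activins restrain hepatocyte growth, follistatin is a circulating product of hepatocytes, and BMP signalling sets hepcidin and thereby iron handling. ID proteins lack a DNA-binding region and hold the E proteins, a class of basic helix-loop-helix transcription factors, in inactive pairs.

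The files hold log2 CPM values, that is, read counts scaled to sequencing depth (CPM) on a log2 scale, from which the number of reads per gene could be worked back. Samples held 13303451 to 15272737 reads on the listed genes. The hepatocyte lineage was seen in all samples: each of 7 markers, among them AFP and ALB, had values, and their summed level was 3509 to 3771 CPM in the DMSO samples and 4370 to 4653 CPM in the fostamatinib samples. All 7 were higher after fostamatinib at an adjusted p-value under 0.05 (limma), against 23.3% of all genes. APOA1, an apolipoprotein of low level here, had 20, 22 and 23 reads with DMSO and 189, 185 and 194 with fostamatinib, and HNF4A, a transcription factor of hepatocytes, had 2055, 2315 and 2225 and then 4194, 4333 and 4051. Their log2 differences of 3.19 (standard error 0.16) for APOA1 and 1.02 (standard error 0.039) for HNF4A were the largest of the 7. Of 10 markers of stellate, endothelial, immune and bile duct cells, 4 had values (COL1A1, KRT7, PDGFRB and PECAM1), and their summed level was 16.1 to 17.4 CPM with DMSO and 21.3 to 22.2 CPM with fostamatinib. Of these 4, PDGFRB (0.95) and PECAM1 (0.51) rose, while COL1A1 (0.18, adjusted p = 0.298, limma) and KRT7 (-0.48, adjusted p = 0.141, limma) did not pass. The part of these markers in the results for the genes below was not tested.

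Fostamatinib-treated cells had more FST RNA, less INHBA, INHBE, INHBB and ID1 RNA, and slightly less BMP4 RNA than DMSO-treated cells. ID2 was moderately higher and ID3 slightly higher. FSTL3 was at about the same level in both groups. In 8 of the 9 genes all 3 fostamatinib samples lay on 1 side of all 3 DMSO samples, as did 54.1% of all genes. Of these 8 genes 3 were higher (26.8% of all genes) and 5 lower (27.4% of all genes). In limma's test over the whole table the same 8 passed an adjusted p-value of 0.05, as did 47.8% of all genes, with 23.3% higher and 24.5% lower. Differences that passed and were also more than 2-fold were seen in 3 genes (7.13% of all genes), with FST higher (3.85% of all genes) and INHBA and INHBE lower (3.29% of all genes). Because the genes were chosen from this same contrast, these counts describe them and test nothing, and no p-value is given for them. Each difference is given below on the log2 scale with its standard error from limma. In bulk RNA, fewer cells that express a gene and less RNA per cell cannot be told apart.

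**Figure D1:**
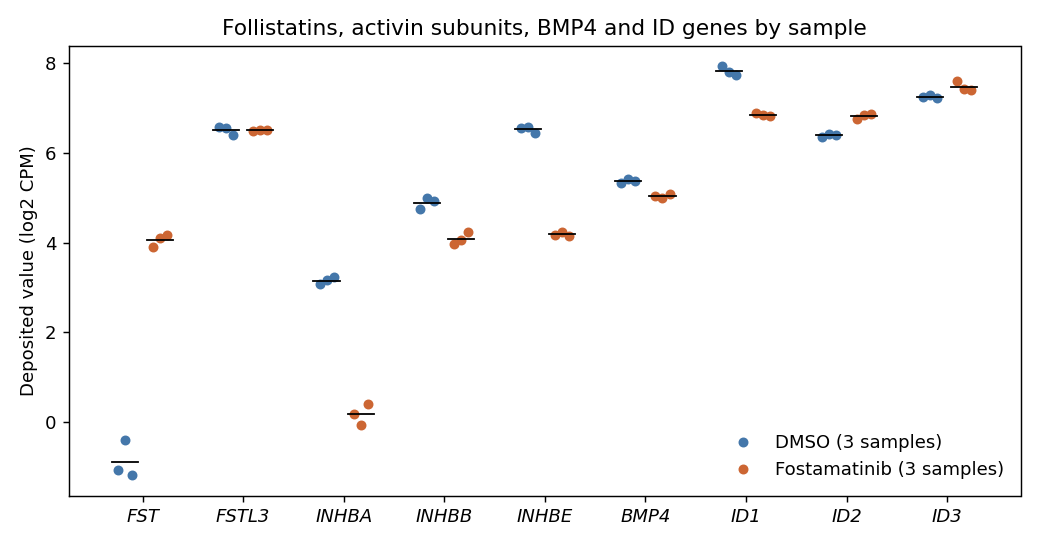
Deposited log2 CPM (y axis) of the 9 genes (x axis) in each of the 3 DMSO (blue) and 3 fostamatinib (orange) samples of Huh7-R cells, with a black bar at each group's mean. The groups are apart in every gene but FSTL3, with the widest gaps in FST, INHBA and INHBE.

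Of the antagonists, FST (ENSG00000134363, GRCh37 chromosome 5 from 52776456 to 52782964, + strand) stood near the lower end of detection without the drug. The DMSO samples held 6, 11 and 6 reads of FST, and the samples with fostamatinib held 205, 246 and 239. Every treated sample was thus far above every control, whose own values rest on few reads. On the log2 CPM scale the mean went from -0.90 ± 0.43 (SD, n = 3) to 4.06 ± 0.14 (SD, n = 3), a difference of 4.96 (standard error 0.21). This was the rise in place 3 among all 16305 genes. With all reads of a group summed, 690 against 23 reads gave a ratio of 31.7 at equal depth, with a 95% interval of 20.9 to 50.3 (exact, from counting error only).

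FSTL3 (ENSG00000070404, chromosome 19 from 676392 to 683392, + strand), the related binding protein, was abundant in both groups. It had 1323, 1445 and 1262 reads with DMSO and 1236, 1296 and 1214 with fostamatinib. The mean was 6.52 ± 0.097 log2 CPM (SD, n = 3) with DMSO and 6.51 ± 0.014 (SD, n = 3) with fostamatinib, and the groups overlapped. The difference of -0.015 (standard error 0.051) was smaller than the spread between the DMSO samples. Levels of different genes were compared as CPM per kb of merged exon length. By this measure FST made up 0.657% ± 0.18 (SD, n = 3) of the summed FST and FSTL3 level in the DMSO samples and 16.9% ± 1.2 (SD, n = 3) in the fostamatinib samples. The sum itself was 30.5 ± 2.0 CPM per kb (SD, n = 3) and 36.0 ± 0.88 (SD, n = 3).

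Of the activin subunits, INHBA (ENSG00000122641, chromosome 7 from 41706766 to 41745432, - strand) encodes the beta A chain, from which activin A is built. It had 115, 136 and 139 reads with DMSO and 15, 13 and 17 with fostamatinib. The level was low in both groups and the groups were far apart. The mean log2 CPM was 3.15 ± 0.082 (SD, n = 3) and 0.16 ± 0.24 (SD, n = 3), a difference of -2.99 (standard error 0.19), in place 23 among all genes counted from the largest fall. The summed reads, 390 against 45, gave an 8.21-fold lower level with fostamatinib at equal depth, with a 95% interval of 6.02 to 11.4 (exact, from counting error only).

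INHBE (ENSG00000139269, chromosome 12 from 57846106 to 57853063, + strand) encodes the beta E chain, which is made mainly in liver. It had 1306, 1472 and 1292 reads with DMSO and 247, 270 and 236 with fostamatinib. Its control samples lay close together, as did its treated samples, at a much lower level. The mean log2 CPM was 6.53 ± 0.080 (SD, n = 3) and 4.19 ± 0.048 (SD, n = 3), a difference of -2.34 (standard error 0.063), in place 68 counted from the largest fall.

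INHBB (ENSG00000163083, chromosome 2 from 121103712 to 121109379, + strand), the gene of the beta B chain of activin B, showed a smaller difference. It had 370, 488 and 451 reads with DMSO and 215, 237 and 248 with fostamatinib, with no overlap. The mean log2 CPM was 4.89 ± 0.13 (SD, n = 3) and 4.09 ± 0.13 (SD, n = 3), a difference of -0.81 (standard error 0.084).

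The makeup of the subunit RNA differed between the groups as well. Per kb, INHBE held 74.6% ± 2.0 (SD, n = 3) of the summed INHBA, INHBB and INHBE level in the DMSO samples and 52.5% ± 2.7 (SD, n = 3) in the fostamatinib samples. INHBB held 22.8% ± 1.8 (SD, n = 3) and 46.3% ± 2.6 (SD, n = 3), so that INHBB and INHBE were close to each other after treatment. INHBA held only 2.64% ± 0.22 (SD, n = 3) and 1.19% ± 0.18 (SD, n = 3). The sum of the subunits was 40.8 ± 1.8 CPM per kb (SD, n = 3) with DMSO and 11.4 ± 0.48 (SD, n = 3) with fostamatinib. It lay above the sum of FST and FSTL3 in each DMSO sample and below it in each fostamatinib sample. RNA levels say nothing here of the amounts of protein.

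**Figure D2:**
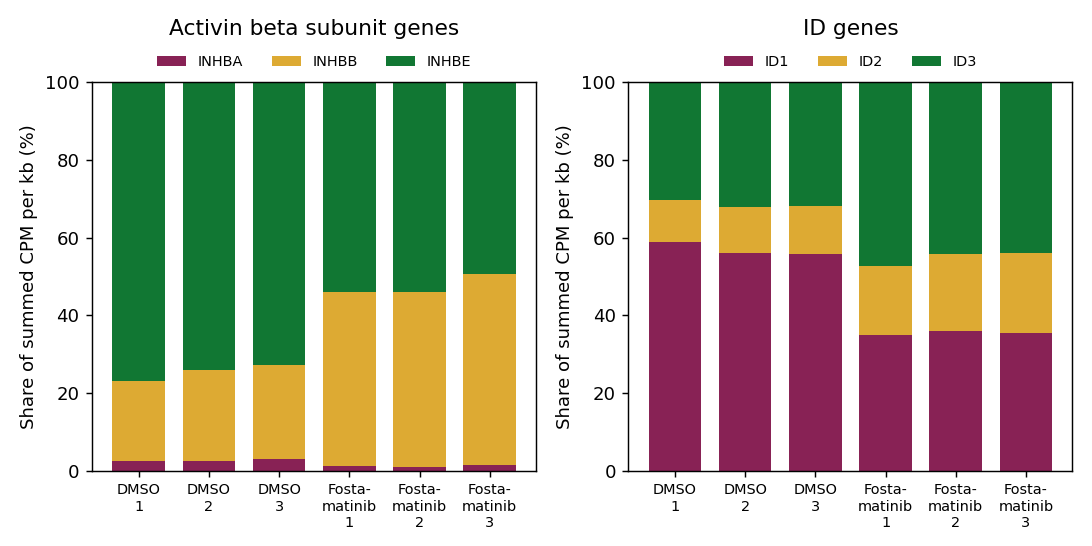
Share in percent (y axis) of each gene in the summed CPM per kb of its group, for the activin beta subunit genes (left) and the ID genes (right), in the 3 DMSO and 3 fostamatinib samples (x axis). The lowest INHBE share is 72.9% with DMSO and the highest is 54.0% with fostamatinib, and for ID1 these are 55.8% and 35.8%.

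BMP4 (ENSG00000125378, chromosome 14 from 54416454 to 54425479, - strand) had the smallest difference of the 4 chosen ligand genes. It had 558, 657 and 612 reads with DMSO and 455, 456 and 452 with fostamatinib, and the groups did not overlap. The mean log2 CPM was 5.38 ± 0.046 (SD, n = 3) and 5.05 ± 0.046 (SD, n = 3), a difference of -0.33 (standard error 0.063), or a level 20.5% lower.

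The ID genes did not move together. ID1 (ENSG00000125968, chromosome 20 from 30193086 to 30194318, + strand) had 3373, 3434 and 3203 reads with DMSO and 1626, 1651 and 1497 with fostamatinib, and was lower in every treated sample. Its mean log2 CPM was 7.83 ± 0.093 (SD, n = 3) and 6.85 ± 0.033 (SD, n = 3), a difference of -0.98 (standard error 0.045). The level with fostamatinib was 49.3% lower.

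ID2 (ENSG00000115738, chromosome 2 from 8818975 to 8824591, + strand) and ID3 (ENSG00000117318, chromosome 1 from 23884417 to 23885992, - strand) were higher. ID2 had 1122, 1321 and 1266 reads with DMSO and 1502, 1654 and 1556 with fostamatinib. Its mean log2 CPM was 6.40 ± 0.046 (SD, n = 3) and 6.83 ± 0.056 (SD, n = 3), a difference of 0.44 (standard error 0.048). No treated sample of ID2 reached down to the controls. ID3 had 2107, 2393 and 2225 reads with DMSO and 2675, 2471 and 2250 with fostamatinib, and its read numbers overlapped before scaling for depth. Its log2 CPM was 7.26, 7.29 and 7.23 with DMSO and 7.60, 7.44 and 7.41 with fostamatinib, which no longer overlapped. The difference for ID3 was 0.22 (standard error 0.046), the smallest of the 8 that were past the threshold. An antisense gene, ID2-AS1, overlaps ID2. It had 22, 31 and 23 reads with DMSO and 18, 14 and 22 with fostamatinib, few beside ID2. Antisense genes likewise overlap INHBA (INHBA-AS1), INHBE (ENSG00000287200) and BMP4 (ENSG00000287156), and their reads were not analysed here. Whether counting used the strand is not given in the sources used here, so reads of such partners cannot be told apart.

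Among the ID genes the leading one differed between the groups. Per kb, ID1 held 56.8% ± 1.7 (SD, n = 3) of the summed ID1, ID2 and ID3 level with DMSO and 35.4% ± 0.50 (SD, n = 3) with fostamatinib. ID3 held 31.4% ± 1.0 (SD, n = 3) and 45.1% ± 1.8 (SD, n = 3). ID2 held 11.7% ± 0.73 (SD, n = 3) and 19.5% ± 1.4 (SD, n = 3). The sum was 326 ± 12 CPM per kb (SD, n = 3) with DMSO and 265 ± 8.9 (SD, n = 3) with fostamatinib.

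**Figure D3:**
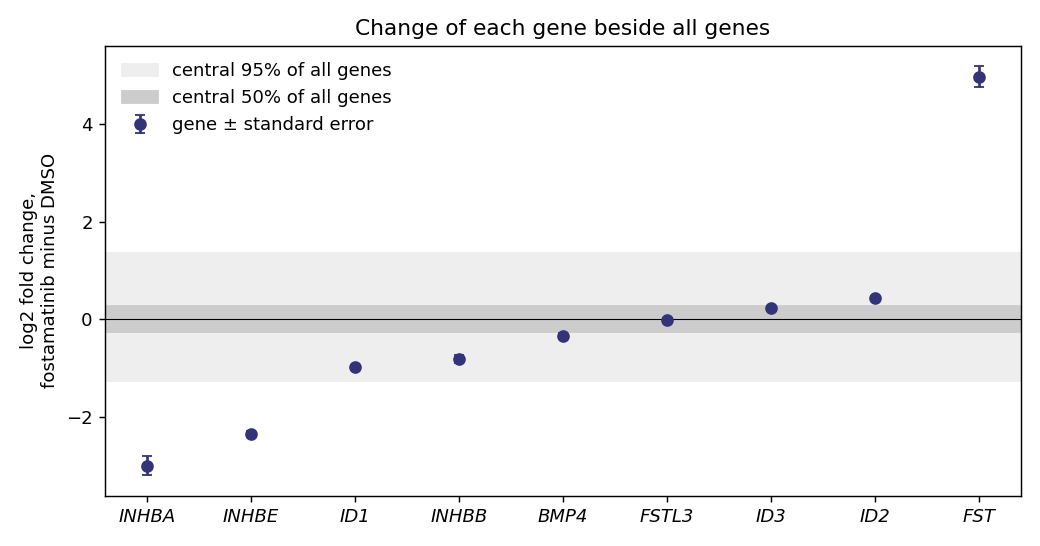
Difference between fostamatinib and DMSO in log2 CPM (y axis) for each of the 9 genes (x axis, in order of the difference), with the standard error from limma. The dark band holds the central 50% of all 16305 genes (-0.27 to 0.27) and the light band the central 95% (-1.26 to 1.35). INHBA, INHBE and FST lie outside the light band.

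Set in order per kb, the DMSO samples had ID1 highest with 7.53 log2 CPM per kb, then ID3 with 6.68 and ID2 with 5.25. INHBE with 4.93 and FSTL3 with 4.92 came next and overlapped between samples. BMP4 with 3.75, INHBB with 3.21, INHBA with 0.10 and FST with -2.36 followed, each apart from its neighbour in every sample. In the fostamatinib samples ID3 led with 6.90, ahead of ID1 with 6.55 and ID2 with 5.69. FSTL3 with 4.90 and BMP4 with 3.42 came next, then FST with 2.60 and INHBE with 2.58, which overlapped. INHBB with 2.40 and INHBA with -2.89 closed the order. FST thus moved from the last place to a level like that of INHBE. The exon lengths are those of all annotated transcripts merged, and the transcript used in these cells may be shorter.

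The sequences before the start of 4 genes are shown, namely FST and INHBA, which had the largest difference in each direction, and ID1 and ID3, which are related genes with opposite differences. Each is the 250 bases before the RefSeq start, read 5′ to 3′ on the gene's strand and placed on GRCh37 by an exact match. They lie at chr5:52776209-52776458 (+ strand) for FST, chr7:41742689-41742938 (- strand) for INHBA, chr20:30192842-30193091 (+ strand) for ID1 and chr1:23885993-23886242 (- strand) for ID3. Capitals mark 5 short motifs on either strand, namely GGCGCC and CAGACA (bound by SMAD proteins), TGANTCA (a loose form of the AP-1 site, with any middle base), TATAAA (the TATA box) and CCAAT.
FST: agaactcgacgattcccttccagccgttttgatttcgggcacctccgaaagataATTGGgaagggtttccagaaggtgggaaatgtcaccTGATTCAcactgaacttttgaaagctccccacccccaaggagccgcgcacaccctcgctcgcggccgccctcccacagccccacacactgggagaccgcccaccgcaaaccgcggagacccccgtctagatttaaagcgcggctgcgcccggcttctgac
INHBA: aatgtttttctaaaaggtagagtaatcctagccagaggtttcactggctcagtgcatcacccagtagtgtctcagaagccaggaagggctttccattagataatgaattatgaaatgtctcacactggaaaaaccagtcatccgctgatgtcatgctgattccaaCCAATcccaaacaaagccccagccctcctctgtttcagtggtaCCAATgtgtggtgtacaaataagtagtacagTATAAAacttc
ID1: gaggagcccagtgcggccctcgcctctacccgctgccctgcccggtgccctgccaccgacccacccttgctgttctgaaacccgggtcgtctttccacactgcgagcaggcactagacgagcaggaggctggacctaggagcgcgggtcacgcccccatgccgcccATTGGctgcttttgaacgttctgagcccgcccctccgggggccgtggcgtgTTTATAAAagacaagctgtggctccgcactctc
ID3: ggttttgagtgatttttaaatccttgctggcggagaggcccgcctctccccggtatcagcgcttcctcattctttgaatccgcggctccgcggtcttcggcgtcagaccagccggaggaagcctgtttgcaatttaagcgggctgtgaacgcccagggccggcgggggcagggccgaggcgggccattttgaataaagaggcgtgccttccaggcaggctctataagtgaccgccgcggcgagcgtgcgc

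In these stretches FST had TGANTCA with its first base 160 bases before the start and CCAAT, on the other strand, at 196 bases. The former reads TGATTCA, and whether AP-1 binds it was not tested. INHBA had TATAAA at 11 bases and CCAAT at 85 and 42 bases. The stretch of INHBA lies inside the annotated gene, since the RefSeq start is at 41742688 and the GENCODE gene start at 41745432. Whether this TATAAA match works as a TATA box was not tested. ID1 had TATAAA at 31 bases, overlapped by a match on the other strand at 33 bases, and CCAAT on the other strand at 84 bases. ID3 had none of the 5. Promoter sequences were matched for 8 of the 9 genes. Over these 8, GGCGCC was found in 3 (FSTL3, INHBB and BMP4) and in 16.1% of the 27305 promoters in the table. TGANTCA was found in 1 of the 8 and 6.6% of all, TATAAA in 3 and 11.1%, and CCAAT in 4 and 33%. CAGACA was found in none of the 8 and in 13.6% of all. In GENCODE, the stretch of FST takes in 3 bases of an FST exon and that of ID1 takes in 6 bases of an ID1 exon and 88 bases of an exon of another gene, ENSG00000289875, while those of INHBA and ID3 touch no exon. That of ID2 is not shown, since 202 of its bases lie in annotated ID2 exons.

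The rest of the pathway was described with 8 lists of genes from general knowledge, which were not picked for how the genes moved. Results of these data on some of the genes were known when the lists were written, so the counts describe them and test nothing. Of 83 listed genes, 52 had values and the others were not analysed here. In limma's test 26 of the 52 (50%) had an adjusted p-value under 0.05, 7 higher and 19 lower after fostamatinib. Among all genes 23.3% were higher and 24.5% lower. Of the 52 genes, 6 met the authors' filter on low reads through 1 group only, which favours a difference between the groups. HFE2 and CER1 are the 2 of these that were called, and GDF7, INHA, PCSK5 and SMAD9 were not. No p-value is given for HFE2 and CER1, and their intervals below describe counting error and are not a test. The median log2 difference of the 52 genes was -0.073, against 0.0015 over all genes. Genes named below beyond those that the naming rule gives were named after their values were seen.

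**Figure D4:**
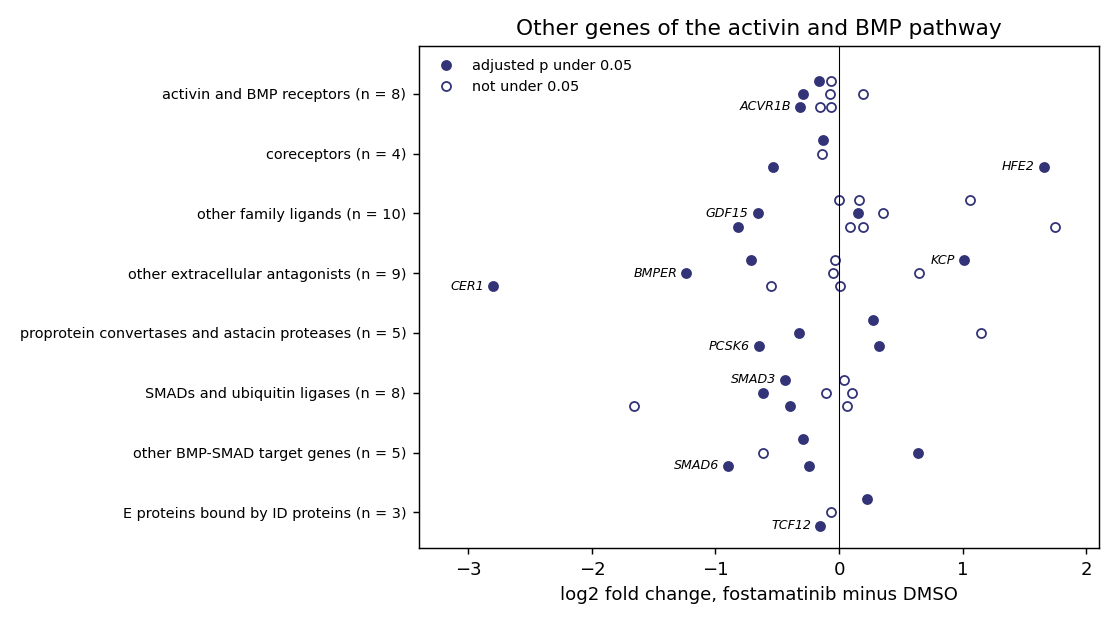
Difference between fostamatinib and DMSO in log2 CPM (x axis) of the 52 other pathway genes, by list (y axis). Filled points had an adjusted p-value under 0.05 from limma, and the named points are those that the naming rule gives. Most points lie within 1 of 0, with CER1 at -2.80 as the farthest.

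Among the receptors, 3 of 8 fell and none rose. The share called lower was 37.5%, against 24.5% of all genes, and 47.8% of all genes were called in either direction. ACVR1B, a type I receptor for activins, had 836, 912 and 924 reads with DMSO and 652, 676 and 687 with fostamatinib. Its log2 difference was -0.32 (standard error 0.057, adjusted p = 1.56e-05, limma). ACVR1 (-0.29) and BMPR1A (-0.16, adjusted p = 0.0471, limma), type I receptors of the BMP branch, were the others that fell. In BMPR1A the groups overlapped. ACVR1C (-0.077), another type I receptor for activins, and BMPR1B (-0.15) did not pass. Nor did the type II receptors ACVR2A (0.20), ACVR2B (-0.069) and BMPR2 (-0.067). Of the 4 coreceptors with values, 1 was called higher and 2 lower (75% called, against 47.8% of all genes). The one called higher, HFE2, met the authors' filter through the fostamatinib group only. RGMB (-0.53) and TGFBR3 (-0.13, adjusted p = 0.0491, limma), the latter also a coreceptor of inhibin, fell. In TGFBR3 the groups overlapped. HFE2, the gene of hemojuvelin, a BMP coreceptor of liver, had 2, 4 and 2 reads with DMSO and 11, 7 and 8 with fostamatinib. Its summed reads gave a ratio of 3.43 with a 95% interval of 1.51 to 8.77 (exact, from counting error only).

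Of the other ligands of the family, 1 of 10 rose and 2 fell, so that 30% were called, against 47.8% of all genes. GDF15, a stress-induced cytokine, had 1454, 1595 and 1258 reads with DMSO and 842, 928 and 788 with fostamatinib, a log2 difference of -0.66 (standard error 0.062, adjusted p = 4.31e-11, limma). BMP8B fell by 0.82 (standard error 0.13). BMP2, a ligand related to BMP4, rose by 0.16 (standard error 0.042). INHA, the inhibin alpha subunit that pairs with beta subunits, had a mean of 3.7 reads with DMSO and 6.3 with fostamatinib. It met the authors' filter through the fostamatinib group only, and its log2 difference of 1.06 (standard error 0.65) did not pass.

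Of 9 other extracellular antagonists, 1 was called higher and 3 lower, CER1 among them. The called share was 44.4%, against 47.8% of all genes. BMPER, a secreted BMP binder, had 43, 54 and 48 reads with DMSO and 21, 19 and 17 with fostamatinib, a log2 difference of -1.23 (standard error 0.23, adjusted p = 2.33e-05, limma). CER1, which binds nodal and BMPs, had 11, 9 and 12 reads with DMSO and 1 in each fostamatinib sample. Its summed reads gave a ratio of 10.1 with a 95% interval of 3.16 to 51.5 (exact, from counting error only). KCP, a secreted modulator of BMP signals, rose from 14, 7 and 8 reads to 17, 17 and 20, a log2 difference of 1.01 (standard error 0.36, adjusted p = 0.0188, limma). That call was lost when DMSO replicate 2 (adjusted p = 0.0847), DMSO replicate 3 (adjusted p = 0.0572) or fostamatinib replicate 3 (adjusted p = 0.0817) was left out. FSTL1, a distant relative of follistatin, fell by 0.71 (standard error 0.037). Of the 5 processing enzymes, 2 were called higher and 2 lower (80% called, against 47.8% of all genes). PCSK6, a convertase that cleaves TGF-beta family precursors, fell by 0.65 (standard error 0.056, adjusted p = 4.26e-12, limma) from 1052, 1138 and 1169 reads to 629, 717 and 669. TLL1 fell by 0.32, while FURIN (0.32) and BMP1 (0.27) rose.

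Inside the cell, 3 of the 8 SMADs and SMURF ubiquitin ligases fell and none rose. The share called lower was 37.5%, against 24.5% of all genes, and 47.8% of all genes were called in either direction. SMAD3, which carries activin signals, had 3680, 4091 and 3854 reads with DMSO and 2753, 2715 and 2602 with fostamatinib, a log2 difference of -0.44 (standard error 0.039, adjusted p = 1.38e-11, limma). SMAD1 (-0.61) and SMAD5 (-0.40), which carry BMP signals, fell as well. SMAD2 (0.065) and SMAD4 (-0.11), the shared partner, did not pass. SMAD9, the remaining SMAD of the BMP branch, had 12, 4 and 5 reads with DMSO and 6, 0 and 2 with fostamatinib. Its groups overlapped, and it met the authors' filter through the DMSO group only. Of 5 further BMP target genes with values, 3 fell and 1 rose (80% called, against 47.8% of all genes). SMAD6, an inhibitory SMAD and like ID1 a target of the BMP branch, had 435, 438 and 479 reads with DMSO and 238, 225 and 217 with fostamatinib, a log2 difference of -0.90 (standard error 0.079, adjusted p = 6.87e-12, limma). SMAD7 (-0.29), the other inhibitory SMAD, and BAMBI (-0.24), a decoy receptor, also fell. ID4, the remaining member of the ID family, rose from 65, 65 and 58 reads to 101, 91 and 85, a log2 difference of 0.64 (standard error 0.15, adjusted p = 4.88e-04, limma). ID4 thus had the sign of ID2 and ID3, and SMAD6, SMAD7 and BAMBI that of ID1. Of the 3 E proteins, 1 was called higher and 1 lower (66.7% called, against 47.8% of all genes). TCF12 fell by 0.15 (standard error 0.052, adjusted p = 0.0141, limma), TCF4 rose by 0.22, and TCF3 (-0.063) did not pass. The call for TCF12 was lost without DMSO replicate 3 (adjusted p = 0.0602), fostamatinib replicate 1 (adjusted p = 0.0767) or fostamatinib replicate 2 (adjusted p = 0.0808).

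Genes with the most similar pattern were sought for FST and INHBA by the root mean square difference over the 6 samples, after each gene's own DMSO mean was subtracted from its log2 CPM. Among 14187 genes, nearest to FST were LGALS12 (0.56) and APOA4 (0.57). LGALS12 had 0 or 1 read in each DMSO sample and 21 or 22 in each fostamatinib sample. APOA4 had 6, 3 and 4 reads with DMSO and 103, 123 and 99 with fostamatinib. LGALS12 and APOA4 met the authors' filter through the fostamatinib group only, which favours a difference. Nearest to INHBA were SOCS3 (0.13), SERPINB2 (0.20) and ETV1 (0.21). SERPINB2 had 3, 4 and 4 reads with fostamatinib and met the filter through the DMSO group only. These genes were found by their likeness in this same contrast, so their nearness describes these samples only.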

How the data were processed

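The authors aligned RNA-seq reads of the 6 samples with HISAT (hg19) and counted them per gene with featureCounts (GENCODE v.22). They dropped genes that in both groups stayed under 5 reads in 2 or more samples, and applied TMM normalization. The deposited values are log2 CPM, which the values show to include 0.5 added to each count. Tool versions are not given in the sources used here. Reads per gene were recovered from the value steps, and 100% of values lay within 0.05 of a whole number. One ribosomal RNA listed repeatedly was used once.

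Models were fitted in R 4.3.3 with limma 3.58.1 (lmFit, then eBayes with a mean-variance trend, two-sided) on all 16305 genes with treatment as the only term and Benjamini-Hochberg adjustment. An adjusted p-value under 0.05 was called. Small adjusted p-values rest on spread pooled across genes. Coordinates and exon lengths are from GENCODE version 44 on GRCh37, the same build as hg19. Promoter sequences are from RefSeq (table build GRCh38.p14) and their places on GRCh37 from an exact match. The scripts were tested on simulated data. Alternatives were limma-voom on recovered reads, eBayes without a trend, median-ratio size factors, library size alone, a minimum of 10 reads, 2 added per count, a replicate block and leaving out each sample.

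The genes and lists were chosen with earlier results of these data known. Named were, beside the 9 genes, all called genes of the pathway lists whose log2 change was at least 1 in size, otherwise the one with the smallest p-value of its list, and the 3 nearest neighbours of FST and of the gene with the largest fall, taken from genes averaging 10 reads or more. One of these neighbours is not reported here.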

Additional observations from a re-analysis of the deposited data

How the results depend on the processing

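Of 107 values of the 9 genes under alternative settings, 17 (the replicate block and the minimum of 10 reads) equal the reported value by construction. The other 90 lay within the spread between replicates (1 SD), and the genes past the threshold kept their direction in them. With 3 samples per group, values with 1 sample left out cannot lie outside that limit. Nor can they change direction where the groups do not overlap, so only the remaining settings could have failed. The difference for FST was 4.71 with 2 in place of 0.5 added to each read count, and 4.81 to 5.20 with 1 sample left out at a time. FST has under 10 reads in some samples, so it had no value when 10 reads were required throughout. The same omissions gave -3.11 to -2.87 for INHBA, -2.39 to -2.31 for INHBE, -1.02 to -0.93 for ID1 and 0.16 to 0.26 for ID3. FSTL3, which was not called, lay between -0.070 and 0.018. The count of 7794 genes called in the whole table ranged from 6382 (eBayes without a trend) to 7977, and with 1 sample left out from 6958 to 7480. The count of 26 pathway genes ranged from 22 to 28, and from 22 to 25 with 1 sample left out. No clear shared signal was seen between samples with the same replicate number in the labels. Their deviations over 12249 genes had correlations of 0.036, -0.021 and 0.037 for numbers 1, 2 and 3. Whether such samples were handled as pairs cannot be decided from this, since samples handled together need not deviate alike. A replicate block in the model gave 7977 called genes and 27 called pathway genes. HFE2 was not called without fostamatinib replicate 1. Without a trend the calls for KCP (adjusted p = 0.0505) and TCF12 (adjusted p = 0.111, limma) were lost. That fit also gave the highest adjusted p-values (limma) of all settings for 6 genes that stayed called. These were ACVR1B (0.0091), GDF15 (0.0067), SMAD3 (0.0018), PCSK6 (0.0013), SMAD6 (7.3e-04) and BMPER (6.4e-04). CER1 went from -2.80 to -1.98 when 2 was added to each read count. The lowest read numbers, in FST, HFE2, CER1 and KCP, limit how well the size of those differences is known.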
